A study of Mus musculus with 9 samples.

Results

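Interferon-stimulated genes (ISGs) are genes that cells transcribe after an interferon has bound its receptor, and 38 of them, taken by gene symbol, were followed in microglia sorted from mouse brain. All 38 were found among the 23238 symbols counted in every library. Microglia were sorted as CD45+ CD11b+ P2ry12+ cells at day 1, and 3 groups of 3 libraries were made, each library from a pool of 3 mice. All mice were adult female C57BL/6N mice of WT genotype. Normal mice had no treatment. NMO mice, a model of neuromyelitis optica, had an injection into the striatum of NMO-IgG, the patients' antibody against the astrocyte water channel aquaporin-4, together with human complement. NMO+CL mice had the same injection after clodronate liposomes, an agent against blood monocytes and macrophages, had been given into the peritoneum. No library from mice given control antibody or liposomes without clodronate was analysed here, so antibody, complement and injection cannot be told apart in NMO against Normal, nor clodronate and liposomes in NMO+CL against NMO. NMO+CL against Normal combines both steps. The 3 comparisons share libraries and are not independent.

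Type I interferons act through the receptor chains Ifnar1 and Ifnar2 and the kinases Jak1 and Tyk2, which phosphorylate Stat2. Phosphorylated Stat2 acts in a complex with Irf9 that binds the interferon-stimulated response element (ISRE) in the promoters of ISGs, whereas interferon gamma acts through Ifngr1 and Ifngr2 and on genes with the gamma-activated site (GAS). The products block viral entry and replication, sense foreign nucleic acid or damp the response, and in microglia they are known from viral infection, ageing and injury of the brain.

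Total counts ran from 5788234 to 7837219 per library, of which the members took 6823 to 10873. A test across all genes was possible for 37 members. Ifi44 was left out for low counts, with 0 to 10 in each library. Levels are given as CPM, counts scaled to library size, and changes as log2 fold changes from edgeR with their standard error (SE). A gene is called when its adjusted p, by edgeR's quasi-likelihood test with Benjamini-Hochberg adjustment over the 12292 genes tested, was under 0.05. The summed level of 9 microglia markers was 25602 to 28520 CPM in Normal, 22978 to 26151 CPM in NMO and 14449 to 18246 CPM in NMO+CL. The part of this difference in the members' results was not tested. In these bulk libraries fewer cells of a type and less RNA per cell cannot be told apart.

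Few of the ISGs passed the test at day 1, and their median change was near 0 in each comparison. In NMO against Normal, 0 members were called higher, beside 0.472% of all genes tested, and 0 were called lower, beside 0.0244%. DESeq2 called 1 member higher, which was Ifitm3, beside 1.35% of all genes, and limma-voom called 0, beside 0.301%, with 0 lower by both, beside 0.515% and 0.0488%. At an unadjusted edgeR p under 0.05, 4 members were higher, with 6.05% of all genes past that threshold, and 0 lower, with 3.46%. At the thresholds of the study, a 1.5-fold change with an unadjusted p under 0.05, there were 3 members higher, Ifitm3, Gbp7 and Cmpk2, against 5.2% of all genes, and 0 lower, against 2.77%. The median log2 fold change of the 37 members was 0.09, beside -0.01 for all genes tested, with 23 members above 0 and 14 below.

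No member passed the test between the 2 injected groups, with and without clodronate liposomes. Compared with NMO, 0 members were called higher in NMO+CL, with 0.529% of all genes called, and 0 lower, with 1.07%, and DESeq2 and limma-voom also called 0 in each direction, beside 1.62% higher and 2.32% lower of all genes by DESeq2 and 0.667% and 0.822% by limma-voom. At an unadjusted edgeR p under 0.05, 0 members were higher, beside 4.92% of all genes, and 1, Rtp4, was lower, beside 7.47%, and the 1.5-fold rule gave the same counts of 0, against 4.09% of all genes, and 1, against 6.65%. The median was -0.08, beside -0.01 for all genes, with 16 members above 0 and 21 below.

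Between NMO+CL and Normal, the comparison with the most calls over all genes, 3 of 37 members were called higher, Ifitm3, Gbp7 and Lgals3bp, beside 4.79% of all genes. DESeq2 and limma-voom called 3 higher each, beside 6.48% and 4.48%. A count of 3 at that background does not set the list apart. No member, 0 of 37, was called lower by edgeR, beside 4.43% of all genes. DESeq2 called 1 lower, Samhd1, beside 6.36% of all genes, and limma-voom called 0, beside 4.3%. Past an unadjusted p of 0.05 there were 4 members higher, beside 11.0% of all genes, and 2 lower, Samhd1 and Herc6, beside 11.3%. The 1.5-fold rule gave 4 members higher, the 3 called ones and Cmpk2, against 9.9% of all genes, and the same 2 lower, against 10.2%. The median was -0.02, beside -0.01 for all genes, with 16 members above 0 and 21 below.

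**Figure D1:**
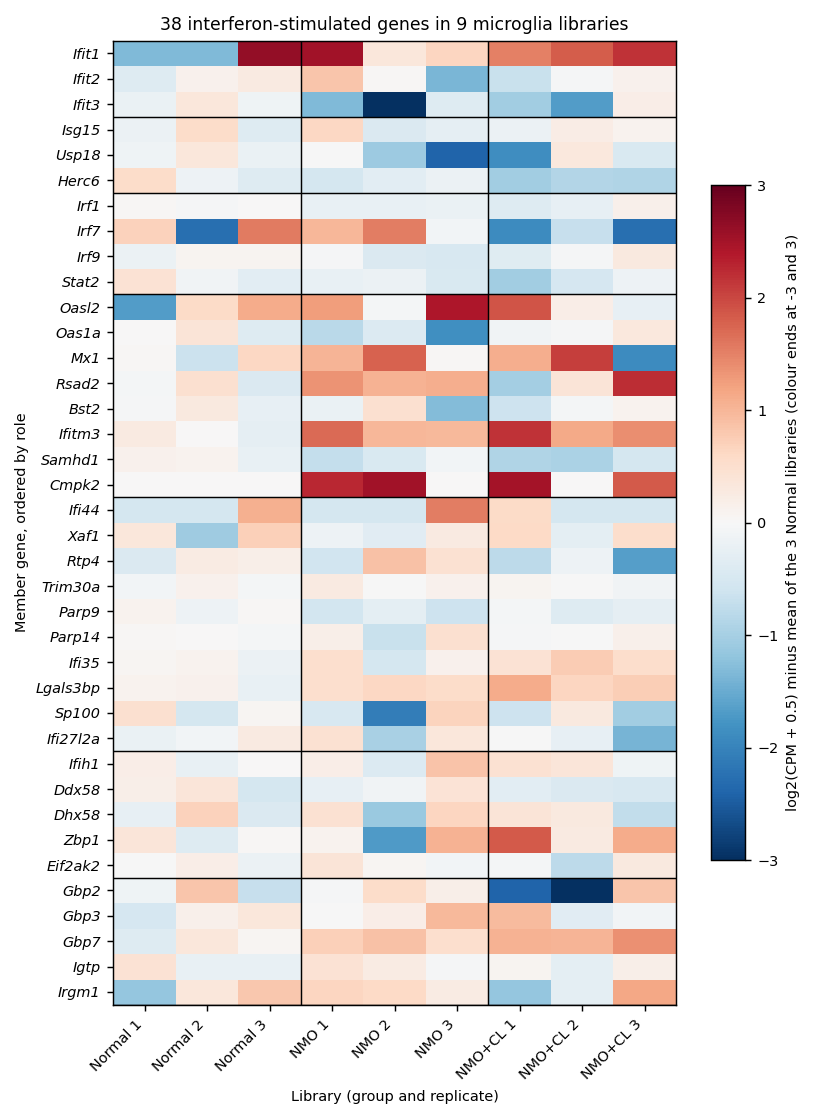
Colours show log2(CPM + 0.5) of each of the 38 members (rows, ordered by role) in each of the 9 libraries (columns) minus its mean over the 3 Normal libraries, with the colour scale ending at -3 and 3. Red rows without blue cells in both injected groups are few, Ifitm3, Gbp7 and Lgals3bp among them, and rows of strong colours such as Ifit1, Irf7 and Cmpk2 belong to genes with mean counts of 21.2, 18.4 and 6.56.

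Summed over the 38 members, the level was 1144.8 to 1272.9 CPM in Normal, 1250.9 to 1365.3 CPM in NMO and 1281.9 to 1469.2 CPM in NMO+CL. The Normal range overlapped that of NMO and lay just below that of NMO+CL. Without the 3 members called higher in NMO+CL against Normal the sum was 905.7 to 975.5, 812.1 to 966.7 and 814.7 to 914.8 CPM. This is given as a description only, since leaving out the members that were higher lowers the remainder by construction.

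Of the interferon genes, 9 were in the pathway list, and the rest of the Ifna family was not examined. Ifnb1, which encodes interferon beta, had 0 counts in all 9 libraries, as had Ifna1, Ifna2, Ifna4, Ifnk, Ifne, Ifnl2 and Ifnl3, and a count of 0 allows up to 3 counts per library. Ifng, which encodes interferon gamma, had 8 counts in Normal replicate 2 and 0 in the other 8 libraries. Counts of 0 for these genes in sorted microglia say nothing of interferons made by other cells.

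The 4 receptor chains of type I interferon and interferon gamma were detected, and none was called in any comparison. Ifnar1 was 46.6 ± 14.9 CPM in Normal, 55.1 ± 7.1 CPM in NMO and 44.0 ± 11.7 CPM in NMO+CL (mean ± SD, n = 3 throughout). Ifnar2 was 300.3 ± 36.2, 239.4 ± 26.3 and 273.9 ± 14.0 CPM in the same order. Ifngr1 was 653.2 ± 50.6, 548.3 ± 46.4 and 737.6 ± 76.9 CPM, and of the 4 chains it had the smallest adjusted p, 0.256 in NMO+CL against NMO, at a log2 fold change of 0.43 ± 0.16 (SE). Ifngr2 was 97.3 ± 26.8, 97.1 ± 9.98 and 94.6 ± 9.74 CPM. Of the receptor for interferon lambda, Ifnlr1 had 1 count in NMO+CL replicate 3 and 0 in the other 8 libraries, and Il10rb, a chain shared with other cytokines, was 82.8 ± 15.2, 96.5 ± 20.3 and 115.2 ± 26.5 CPM and was not called.

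The members that carry the signal into the nucleus are Irf1, Irf7, Irf9 and Stat2, and 0 of these 4 were called in any comparison. Irf9 (chr14:55603571-55610030, plus strand, GRCm38), the DNA-binding part of the complex with Stat2, had 471, 593 and 537 counts in Normal replicates 1 to 3, 654, 521 and 375 in NMO and 449, 511 and 647 in NMO+CL. Relative to library size these were 74.9, 89.1 and 90.1 CPM, 82.1, 62.3 and 59.9 CPM, and 65.4, 82.6 and 103.4 CPM. The ranges of all 3 groups overlapped. The log2 fold change of Irf9 was -0.31 ± 0.24 (SE, adjusted p = 0.774) in NMO against Normal, 0.30 ± 0.24 (adjusted p = 0.675) from NMO to NMO+CL and -0.02 ± 0.24 (adjusted p = 0.984) in NMO+CL relative to Normal. Short stretches at the 3' end of Irf9 resemble other transcripts, at 90.1% to 91.0% identity over 76 to 91 bases, so a part of its reads could be shared.

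Stat2 (chr10:128270559-128292849, plus strand), the part of that complex that activates transcription, had 233, 170 and 131 counts in Normal, 186, 202 and 125 in NMO and 89, 118 and 156 in NMO+CL. Its levels were 37.1, 25.5 and 22.0 CPM, 23.4, 24.2 and 20 CPM, and 13, 19.1 and 24.9 CPM. Normal replicate 1 was the highest library and NMO+CL replicate 1 the lowest, and the groups overlapped. The log2 fold changes were -0.33 ± 0.36 (adjusted p = 0.901), -0.24 ± 0.36 (adjusted p = 0.867) and -0.57 ± 0.37 (adjusted p = 0.41) in the same order of comparisons.

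Irf7 (chr7:141262706-141266481, minus strand), a factor that amplifies the production of type I interferon, was near the limit of detection. It had 21, 0 and 39 counts in Normal, 34, 54 and 11 in NMO and 1, 6 and 0 in NMO+CL, or 3.34, 0.0 and 6.54 CPM, 4.27, 6.46 and 1.76 CPM, and 0.146, 0.97 and 0.0 CPM. The 3 NMO+CL libraries lay below the 3 NMO libraries, but a Normal library was at 0 as well. The log2 fold change was 0.34 ± 1.58 (adjusted p = 0.989) in NMO against Normal, -3.43 ± 1.77 (adjusted p = 0.458) from NMO to NMO+CL and -3.09 ± 1.75 (adjusted p = 0.331) in NMO+CL relative to Normal. Its 3' end overlaps Phrf1 on the other strand, and without stated use of strand their reads cannot be told apart. Irf1, a factor induced by interferon gamma, was 109.4 ± 2.75 CPM in Normal, 94.3 ± 1.31 CPM in NMO and 99.1 ± 20 CPM in NMO+CL, with adjusted p values of 0.783 or more.

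**Figure D2:**
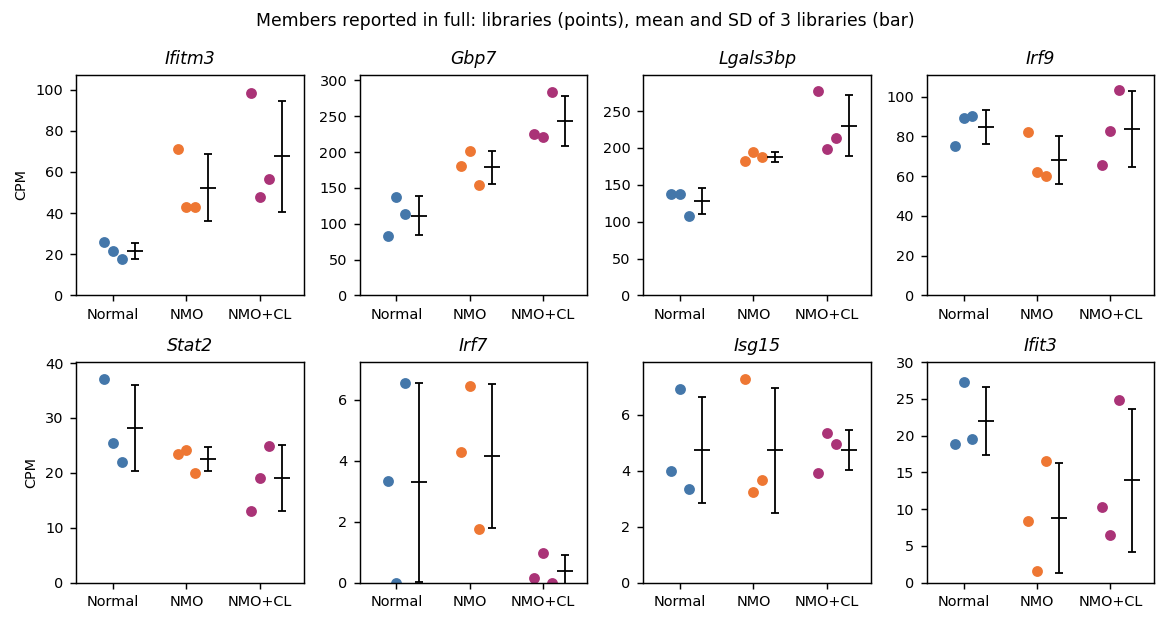
Each panel shows 1 of 8 members (Irf7, Irf9, Stat2, Isg15, Ifit3, Ifitm3, Gbp7 and Lgals3bp), with CPM on the y axis from 0, the 3 groups on the x axis, points for libraries and a bar for the mean and SD of 3 libraries. Ifitm3, Gbp7 and Lgals3bp lie above all Normal libraries in both injected groups, while Irf9, Stat2 and Isg15 overlap between all groups.

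Isg15 (chr4:156199424-156200818, minus strand), a ubiquitin-like protein that is joined to other proteins, had 25, 46 and 20 counts in Normal, 58, 27 and 23 in NMO and 27, 33 and 31 in NMO+CL. Its levels were 3.98, 6.91 and 3.36 CPM, 7.28, 3.23 and 3.68 CPM, and 3.93, 5.34 and 4.96 CPM. The groups lay within the same range. The log2 fold changes were -0.01, 0.00 and -0.00 with an SE of 0.85 each and adjusted p values of 0.999 to 1.0, and the 95% interval in NMO against Normal ran from -1.80 to 1.79. A 3-fold change either way was therefore within the interval of a gene with a mean count of 32.2. The last 500 bases of Isg15 resemble AC151275.1 at 94.7% identity over 338 bases, and shorter stretches resemble 3 other transcripts, so its level is uncertain as well. Usp18, which removes Isg15 and also damps the receptor, was 7.3 ± 1.62 CPM in Normal, 3.74 ± 3.15 CPM in NMO and 5.26 ± 3.73 CPM in NMO+CL, without a call. Herc6, the ligase that attaches Isg15 in mice, was 38.6, 23.4 and 20 CPM in Normal, 18.2, 20.9 and 23.2 CPM in NMO and 12.4, 14.1 and 13.7 CPM in NMO+CL. Its 3 NMO+CL libraries lay below all others, and the log2 fold change against Normal of -1.03 ± 0.38 was not called (adjusted p = 0.102).

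The IFIT proteins bind viral RNA that lacks the host's cap. Ifit3 (chr19:34583531-34588731, plus strand) had 119, 182 and 117 counts in Normal, 67, 13 and 103 in NMO and 71, 40 and 156 in NMO+CL. These were 18.9, 27.3 and 19.6 CPM, 8.41, 1.55 and 16.5 CPM, and 10.3, 6.47 and 24.9 CPM. The NMO libraries were all below the Normal libraries, NMO replicate 2 most of all, and the NMO+CL libraries overlapped both groups. The log2 fold changes were -1.33 ± 0.66 (adjusted p = 0.564), 0.67 ± 0.65 (adjusted p = 0.768) and -0.66 ± 0.64 (adjusted p = 0.652) in the order given above. The first was -2.01 with limma-voom, -0.83 when NMO replicate 2 was left out and -2.15 when NMO replicate 3 was, the second ran from -0.06 to 1.49 and the third from -1.38 to -0.32 with single libraries left out, and no setting gave a call. The last 500 bases of Ifit3 share a stretch of 199 bases with its paralog Ifit3b at 94.0% identity, and reads were counted from multiple alignments too, so the level of Ifit3 is uncertain. Ifit1 ranged from 0.0 to 7.21 CPM over the 9 libraries and Ifit2 from 1.76 to 10 CPM, and neither was called.

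Ifitm3 (chr7:141009586-141010770, minus strand), a membrane protein that blocks the fusion of enveloped viruses in endosomes, was the member with the largest called change. It had 162, 143 and 106 counts in Normal, 566, 360 and 268 in NMO and 674, 295 and 355 in NMO+CL. Its levels were 25.8, 21.5 and 17.8 CPM, 71.1, 43.1 and 42.8 CPM, and 98.2, 47.7 and 56.8 CPM. Every injected library exceeded every Normal library, and NMO and NMO+CL overlapped. Ifitm3 had a log2 fold change of 1.64 ± 0.33 (adjusted p = 0.00356) in NMO+CL against Normal, which is 3.11-fold, and one of 1.27 ± 0.32 (adjusted p = 0.104) in NMO against Normal, a 2.41-fold difference that was not called. The step from NMO to NMO+CL was 0.37 ± 0.32 (adjusted p = 0.71). The call in NMO+CL against Normal held in 15 of 15 alternative settings, with adjusted p values from 9.63e-06 to 0.0293. In NMO against Normal 3 of 15 settings gave a call, with adjusted p values from 0.00626 to 0.426. The transcript's last 500 bases resemble those of Gm6885 at 91.1% identity over 303 bases.

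Markers of other cell types, some of which also express Ifitm3, varied between the libraries. The summed level of 8 neutrophil markers was 97.6 to 563.2 CPM in Normal, 149.7 to 460.2 CPM in NMO and 290.2 to 1319.1 CPM in NMO+CL, with the highest value in NMO+CL replicate 1, which was also the highest for Ifitm3. Without that library the log2 fold change of Ifitm3 in NMO+CL against Normal was 1.27 (adjusted p = 0.0215). Normal replicate 1, with 563.2 CPM of neutrophil markers and 25.8 CPM of Ifitm3, was the highest Normal library for both. The NMO+CL libraries also had the same order for both. In NMO, replicate 3 had the highest marker sum, 460.2 CPM, and the lowest level of Ifitm3, 42.8 CPM. The 9 monocyte markers summed to 28.2 to 54.2 CPM in Normal, 59.4 to 122.0 CPM in NMO and 40.3 to 86.4 CPM in NMO+CL, with none at 0 in all libraries. The 5 endothelial markers summed to 26.0 to 38.6, 9.57 to 40.0 and 45.9 to 60 CPM. The 7 border macrophage markers summed to 159.4 to 307.2 CPM, 8.61 to 187.1 CPM and 216.0 to 407.2 CPM, lowest in NMO replicate 2. The 9 lymphocyte markers summed to 13.2 to 20.6, 9.59 to 21.6 and 4.37 to 15.3 CPM, with Cd3e at 0 counts in all 9 libraries. The 6 markers of plasmacytoid dendritic cells summed to 25.6 to 28.2, 18.2 to 23.2 and 25.2 to 36.6 CPM, with Klk1 at 0 in all. The part of these cells in the changes of Ifitm3, Gbp7 and Lgals3bp was not tested.

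The other restriction factors were not called in any comparison by edgeR. Samhd1 (chr2:157097533-157135265, minus strand), which breaks down deoxynucleotides that viruses need, was the nearest to a call of all members that were lower. It was 88.9, 87.4 and 70.0 CPM in Normal, 49.8, 59.0 and 77.0 CPM in NMO and 43.4, 42.2 and 56.9 CPM in NMO+CL. The 3 NMO+CL libraries lay below the 3 Normal libraries and overlapped those of NMO. Samhd1 had a log2 fold change of -0.79 ± 0.25 (adjusted p = 0.0547) in NMO+CL against Normal. It was called by DESeq2, without NMO replicate 3 and, together with Gbp2, without NMO+CL replicate 3, with adjusted p values from 0.0372 to 0.191 over 15 settings. Cmpk2, a mitochondrial nucleotide kinase, had 0 counts in all 3 Normal libraries, 15, 20 and 0 in NMO and 16, 0 and 8 in NMO+CL. Against a floor of 3 counts per Normal library its mean level was 2.99-fold in NMO and 2.52-fold in NMO+CL. These ratios allow for no error in the injected groups, where NMO replicate 3 and NMO+CL replicate 2 were also at 0. They are therefore not lower bounds, and neither difference was called (adjusted p = 0.5 and 0.219).

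Oasl2 and Oas1a, of the oligoadenylate synthetase family, Mx1, a GTPase that traps viral particles, Rsad2 (viperin), which makes a chain-ending nucleotide, and Bst2 (tetherin), which holds budding virus at the membrane, had mean counts of 23.6 to 60.4. Mx1 was 3.34 ± 1.62 CPM in Normal, 7.23 ± 4.28 CPM in NMO and 7.39 ± 7.04 CPM in NMO+CL. Rsad2 was 1.91, 3.0 and 1.34 CPM in Normal, 5.9, 4.66 and 4.8 CPM in NMO and 0.728, 2.75 and 11.0 CPM in NMO+CL. For Rsad2 the NMO libraries all exceeded the Normal libraries, and its log2 fold change of 1.29 ± 1.08 had an adjusted p of 0.826. Oas1a was 4.13, 5.56 and 3.02 CPM in Normal, 2.13, 2.99 and 0.799 CPM in NMO and 3.79, 4.04 and 5.28 CPM in NMO+CL. Here the NMO libraries all lay below those of both other groups. The log2 fold change of Oas1a was -1.09 ± 1.06 (adjusted p = 0.872) in NMO against Normal and 1.13 ± 1.06 (adjusted p = 0.749) from NMO to NMO+CL. Oas1a shares 383 of its last 500 bases with Oas1g at 97.4% identity, so its counts are uncertain.

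Of the 5 interferon-inducible GTPases, proteins that attack the vacuoles of intracellular microbes, 1 was called. Gbp7 (chr3:142530342-142550149, plus strand) had 526, 917 and 675 counts in Normal, 1434, 1684 and 968 in NMO and 1551, 1365 and 1774 in NMO+CL. Its levels were 83.6, 137.7 and 113.3 CPM, 180.1, 201.4 and 154.7 CPM, and 225.9, 220.8 and 283.6 CPM. The 3 groups did not overlap at any step, Normal being lowest and NMO+CL highest. The log2 fold change in NMO+CL against Normal was 1.12 ± 0.22 (adjusted p = 0.00277), which is 2.18-fold, and it was called in 15 of 15 alternative settings with adjusted p values from 7.43e-06 to 0.0184. The steps between were not called, with 0.68 ± 0.21 (adjusted p = 0.231) in NMO against Normal and 0.45 ± 0.21 (adjusted p = 0.407) from NMO to NMO+CL.

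The other GTPases stayed without a call. Gbp2 was 6.84, 13.8 and 4.53 CPM in Normal, 7.41, 11.4 and 8.63 CPM in NMO and 1.02, 0.323 and 13.9 CPM in NMO+CL, so that the lowest libraries and the highest one belonged to the same group. Without that highest library, NMO+CL replicate 3, the log2 fold change against Normal was -3.60 and was called (adjusted p = 0.0248), while with all libraries it was -0.73 ± 0.95 (adjusted p = 0.759). Gbp3 was 19.6 ± 5.69, 26.2 ± 10.3 and 23.4 ± 12.1 CPM. Igtp was 32.1 ± 9.23, 36.8 ± 5.87 and 31.4 ± 5.3 CPM. Irgm1, a regulator of the other GTPases, was 5.28 ± 3.27, 6.59 ± 1.01 and 5.29 ± 4.65 CPM, and stretches of its 3' end resemble several other transcripts at 90.2% to 92.0% identity.

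Lgals3bp (chr11:118392751-118402092, minus strand), a secreted glycoprotein that binds galectins, was the third called member. It had 865, 920 and 644 counts in Normal, 1447, 1625 and 1173 in NMO and 1900, 1229 and 1339 in NMO+CL. Its levels were 137.6, 138.2 and 108.0 CPM, 181.7, 194.3 and 187.5 CPM, and 276.8, 198.8 and 214.1 CPM. Here too the groups did not overlap, in the order Normal, NMO and NMO+CL. The log2 fold change was 0.84 ± 0.20 (adjusted p = 0.0102) in NMO+CL against Normal, which is 1.8-fold, 0.55 ± 0.19 (adjusted p = 0.312) in NMO against Normal and 0.29 ± 0.19 (adjusted p = 0.592) in NMO+CL against NMO. Without Normal replicate 3, the lowest library, the first of these was 0.74 and no longer called (adjusted p = 0.0671).

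None of the other nuclear and effector members was called in a comparison. Trim30a, which restrains signaling from pattern receptors, was 191.7 ± 15.8 CPM in Normal, 209.0 ± 19.1 CPM in NMO and 189.2 ± 13.1 CPM in NMO+CL, and its 95% interval in NMO+CL against Normal ran from -0.40 to 0.36 on the log2 scale. Parp14, a mono-ADP-ribosyltransferase, was 72.6 ± 2.59, 76.4 ± 28.2 and 74.5 ± 5.82 CPM. Parp9, its partner, was 57.6 ± 5.08, 41.0 ± 5.3 and 48.8 ± 6.06 CPM, with a log2 fold change of -0.49 ± 0.25 in NMO against Normal (adjusted p = 0.576). Rtp4 was 11.1, 17.9 and 17.1 CPM in Normal, 9.92, 27.9 and 20.9 CPM in NMO and 8.59, 13.6 and 4.48 CPM in NMO+CL. With -1.14 ± 0.52 on the log2 scale between the last pair of groups, Rtp4 had an adjusted p of 0.371. Ifi35, Xaf1, Sp100 and Ifi27l2a were not called either, with adjusted p values of 0.364 or more.

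The sensors of foreign nucleic acid among the members are Ifih1 (MDA5), Ddx58 (RIG-I), Dhx58 (LGP2), Zbp1 and Eif2ak2 (PKR), and 0 of these 5 were called. Ifih1 was 22.2 ± 3.26 CPM in Normal, 27.3 ± 11.9 CPM in NMO and 26.3 ± 5.44 CPM in NMO+CL. Ddx58 was 37.4 ± 11.2, 37.3 ± 9.24 and 27.0 ± 1.73 CPM. Eif2ak2 was 21.6 ± 2.93, 23.5 ± 4.21 and 19.7 ± 7.0 CPM. Their log2 fold changes ran from -0.47 to 0.29 over the 3 comparisons. Zbp1 had a mean count of 12.8 and an SE of 1.61 to 1.63, too wide to place its change.

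**Figure D3:**
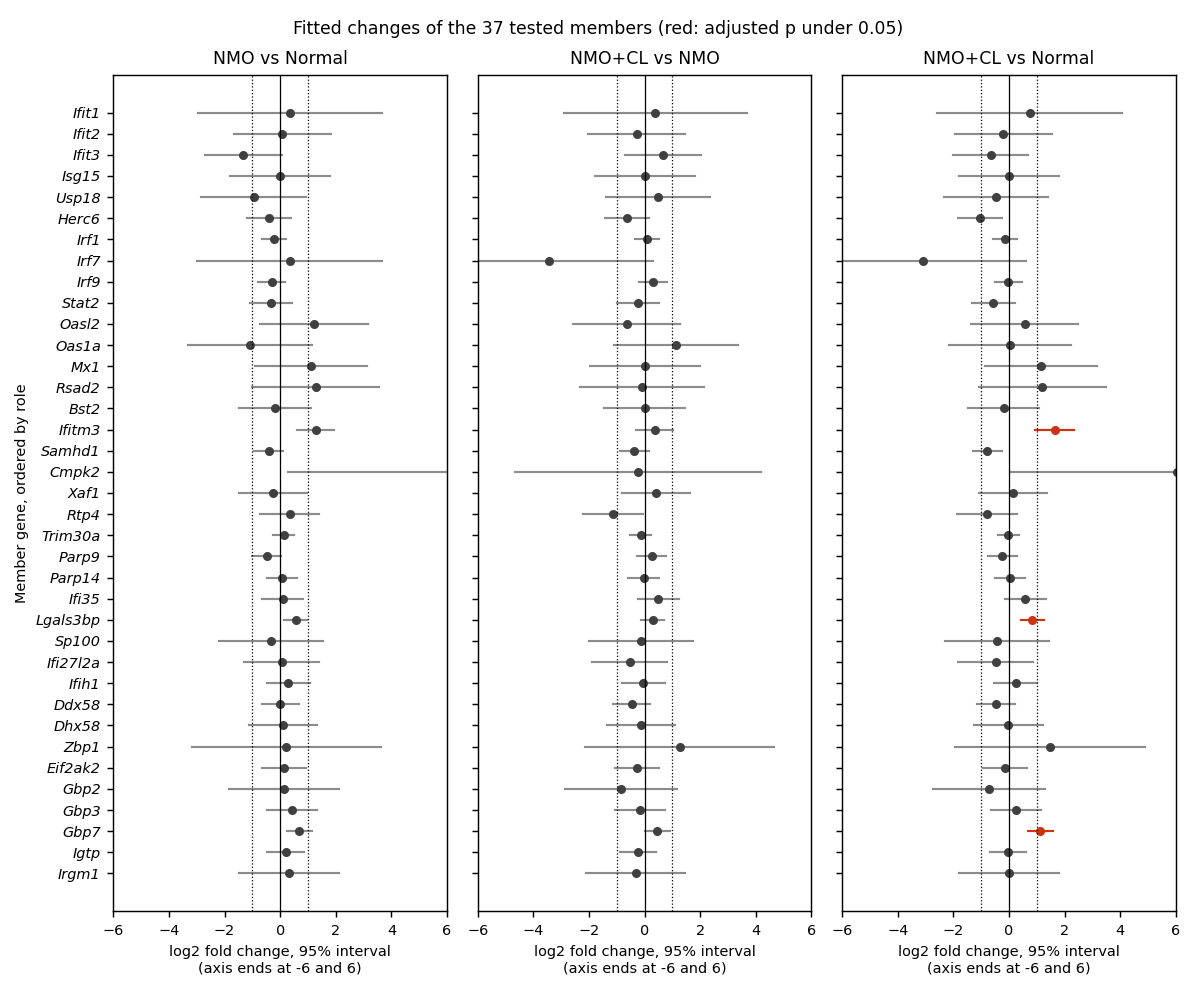
Points are log2 fold changes of the 37 tested members (rows, ordered by role) with 95% intervals as bars in the 3 comparisons, dotted lines mark 2-fold changes, and red marks an adjusted p under 0.05; axes end at -6 and 6, beyond which the point of Cmpk2 lies in NMO against Normal (6.29) and, cut by the edge, in NMO+CL against Normal (6.05). The 3 red members are all in NMO+CL against Normal, and most intervals cross 0.

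How firmly a missing call can be read depended on counts. For the 18 members with a mean count of at least 100 over the 9 libraries the median SE was 0.31 in each comparison, and for the 19 under 100 it was 0.89 to 0.90. The 95% interval excluded a 2-fold rise for 16 of the 37 members in NMO against Normal, 18 from NMO to NMO+CL and 15 in NMO+CL relative to Normal. It lay within 2-fold both ways for 10, 10 and 7 members, Irf1, Irf9, Igtp, Parp14 and Trim30a in all 3 comparisons. None of the 19 members under 100 counts was among them, so for Ifit1, Ifit2, Isg15, Mx1, Oas1a, Oasl2, Rsad2 and Usp18 a 2-fold change in NMO against Normal lay within the interval at this depth.

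**Figure D4:**
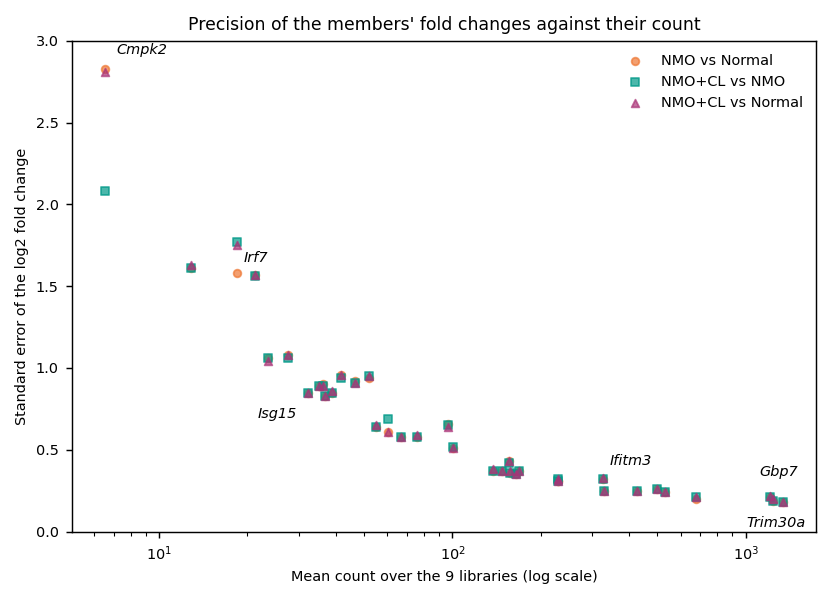
Each point is 1 of the 37 tested members in 1 comparison, with its mean count over the 9 libraries on a log x axis and the SE of its log2 fold change on the y axis. The SE falls from 2.83 for Cmpk2, at a mean count of 6.56, to 0.18 for Trim30a, at 1334.3.

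The promoters were examined for the letters that the interferon factors bind. RefSeq windows of 300 bases, 250 before and 50 after the transcription start (GRCm38.p6), were matched for 30 of the 38 members. The ISRE core GAAANNGAA, on either strand, was found for 18 of these 30 members, 60%, beside 9.8% of all 27025 genes with a window. The GAS core TTCNNNGAA was found for 10 members, 33.3%, beside 9.6% of all genes. Windows are shown for the 2 members with an ISRE core match and the smallest adjusted p, with matches in capitals. The member without a match that had the smallest adjusted p is shown as well. These are the 3 called members, and the split into 2 with and 1 without a match was set by this rule. Gbp7 has 1 match (chr3:142530086-142530385, plus strand), Ifitm3 has 2 (chr7:141010695-141010994, minus strand) and Lgals3bp has 0 (chr11:118401910-118402209, minus strand).
Gbp7: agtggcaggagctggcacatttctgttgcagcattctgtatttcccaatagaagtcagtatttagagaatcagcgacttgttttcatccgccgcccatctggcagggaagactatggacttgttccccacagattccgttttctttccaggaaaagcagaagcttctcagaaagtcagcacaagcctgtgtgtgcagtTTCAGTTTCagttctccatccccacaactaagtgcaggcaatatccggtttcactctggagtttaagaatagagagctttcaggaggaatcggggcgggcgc
Ifitm3: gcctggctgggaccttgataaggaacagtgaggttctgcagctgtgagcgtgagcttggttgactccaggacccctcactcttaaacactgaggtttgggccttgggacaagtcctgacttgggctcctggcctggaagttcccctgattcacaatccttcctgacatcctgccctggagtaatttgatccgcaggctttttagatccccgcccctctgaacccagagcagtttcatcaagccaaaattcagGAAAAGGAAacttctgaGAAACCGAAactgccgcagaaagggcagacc
Lgals3bp: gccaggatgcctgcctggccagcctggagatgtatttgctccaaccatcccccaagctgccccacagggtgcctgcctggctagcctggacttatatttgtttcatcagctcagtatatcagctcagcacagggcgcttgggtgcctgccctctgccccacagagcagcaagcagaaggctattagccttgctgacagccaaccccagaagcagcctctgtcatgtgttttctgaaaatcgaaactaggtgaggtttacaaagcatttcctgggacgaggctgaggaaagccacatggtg
A match describes these letters in this window and is not a bound site. Stat2, Isg15, Ifit1, Ifit3, Rsad2 and Trim30a, which were not called, also hold the ISRE core.

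The interferon pathway outside the members was followed in 41 genes, of which 30 were tested. In NMO against Normal 0 were called by edgeR, beside 0.472% of all genes higher and 0.0244% lower, with 3 higher and 1 lower at an unadjusted p under 0.05, where all genes gave 6.05% and 3.46%. DESeq2 called 1 higher, beside 1.35% of all genes, and limma-voom 0. Against NMO, 0 of 30 were called higher and 1 lower in NMO+CL, beside 0.529% and 1.07% of all genes, and against Normal 2 were called higher and 2 lower there, beside 4.79% and 4.43%. These counts do not set the pathway apart from the background. Unc93b1, which carries the nucleic acid-sensing Toll-like receptors to endosomes, fell in both. It was 907.4, 917.7 and 1033.3 CPM in Normal, 745.0, 1042.1 and 874.6 CPM in NMO and 554.3, 414.7 and 471.8 CPM in NMO+CL, with all NMO+CL libraries below the rest. Its log2 fold change was -0.88 ± 0.18 (adjusted p = 0.0173) from NMO to NMO+CL and -0.99 ± 0.18 (adjusted p = 0.00165) from Normal to NMO+CL. The former was lost without NMO replicate 2 or without NMO+CL replicate 2, with adjusted p values up to 0.122.

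The other 3 pathway genes called in NMO+CL against Normal were Socs3, Pias1 and Mb21d1. Socs3, an inhibitor of receptor kinases, was 152.5 ± 39.3 CPM in Normal, 236.6 ± 99.7 CPM in NMO and 344.1 ± 52.1 CPM in NMO+CL, a log2 fold change of 1.17 ± 0.27 (adjusted p = 0.0108) that was lost without Normal replicate 1 or 2 (adjusted p up to 0.0644). Pias1, an inhibitor of cytokine signalling in the nucleus, was 60.9 ± 16.2, 42.1 ± 8.69 and 23.5 ± 2.21 CPM in the same order and had a log2 fold change of -1.38 ± 0.29 (adjusted p = 0.00584). Mb21d1 (cGAS), the sensor of cytosolic DNA, was 37.7, 60.1 and 60.1 CPM in Normal, 97.8, 97.9 and 116.0 CPM in NMO and 101.7, 99.1 and 90.5 CPM in NMO+CL. All injected libraries were above the Normal ones for Mb21d1, with a log2 fold change of 0.88 ± 0.23 (adjusted p = 0.0208) in NMO+CL against Normal and 0.98 ± 0.23 (adjusted p = 0.0712) in NMO against Normal, where DESeq2 and the fit without the filter called it. Its 3' end overlaps Gm8093 on the other strand, and the call for Mb21d1 was lost without Normal replicate 1, NMO+CL replicate 1 or NMO+CL replicate 2 (adjusted p up to 0.103).

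A wider list of 71 other ISGs, of which 56 were tested, had few calls. For NMO against Normal edgeR called 0, beside the same 0.472% and 0.0244% of all genes, with 4 higher and 1 lower at an unadjusted p under 0.05, beside 6.05% and 3.46%. DESeq2 called 2 higher, beside 1.35%, and limma-voom 0. The NMO+CL libraries had 1 of 56 called higher and 1 lower than NMO, beside 0.529% and 1.07% of all genes, and 4 higher and 4 lower than Normal, beside 4.79% and 4.43%. The list's median log2 fold change was -0.05, -0.04 and -0.06 in the 3 comparisons, and counts so near the background do not set the list apart. Ifi30, a lysosomal thiol reductase of antigen processing, was 149.6, 185.5 and 182.0 CPM in Normal, 295.3, 270.6 and 270.4 CPM in NMO and 626.1, 760.5 and 637.1 CPM in NMO+CL. The 3 groups were apart, and the log2 fold change of 1.28 ± 0.18 (adjusted p = 0.00178) from NMO to NMO+CL and of 1.97 ± 0.18 (adjusted p = 4.8e-06) against Normal held in 15 of 15 alternative settings. In NMO against Normal Ifi30 had a log2 fold change of 0.69 ± 0.17 (adjusted p = 0.0954), called by DESeq2 alone of the 15 settings.

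Psmb9, an interferon-induced subunit of the immunoproteasome, went the other way. It was 38.3, 49.3 and 50.2 CPM in Normal, 36.7, 50.5 and 31.6 CPM in NMO and 14.0, 7.44 and 2.88 CPM in NMO+CL, with no overlap of NMO+CL with either group. Psmb9 differed by -2.28 ± 0.44 (adjusted p = 0.0131) on the log2 scale from NMO to NMO+CL and -2.50 ± 0.44 (adjusted p = 0.00145) from Normal to NMO+CL, and the first was lost without NMO+CL replicate 2 (adjusted p = 0.0764). Irgm2, an immunity-related GTPase like Irgm1 and Igtp, was 51.0 ± 7.97 CPM in Normal, 35.7 ± 13.2 CPM in NMO and 16.3 ± 7.96 CPM in NMO+CL. Its log2 fold change in NMO+CL against Normal was -1.64 ± 0.38 (adjusted p = 0.0106), a call lost without Normal replicate 3 or NMO+CL replicate 2 (adjusted p up to 0.0583). Neither step between was called, with -0.52 ± 0.37 (adjusted p = 0.753) in NMO against Normal and -1.12 ± 0.38 (adjusted p = 0.182) from NMO to NMO+CL. Tmem140 was 62.5 ± 19.2 CPM in Normal, 30.3 ± 14.6 CPM in NMO and 22.3 ± 1.67 CPM in NMO+CL. Its log2 fold change in NMO+CL against Normal was -1.49 ± 0.37 (adjusted p = 0.0145), a call lost without Normal replicate 2 (adjusted p = 0.105). The steps between were not called, with -1.04 ± 0.36 (adjusted p = 0.297) in NMO against Normal and -0.45 ± 0.36 (adjusted p = 0.687) from NMO to NMO+CL. At its 3' end Tmem140 overlaps Cyren on the other strand. The fourth that fell, Uba7, the enzyme that activates Isg15, was 58.5 ± 3.56, 56.8 ± 3.15 and 30.4 ± 8.32 CPM, with a log2 fold change of -0.95 ± 0.27 (adjusted p = 0.033) in NMO+CL against Normal. Its call held in 8 of 15 settings and was lost with library totals alone and without any 1 of the Normal libraries, NMO replicate 1, or NMO+CL replicate 1 or 2 (adjusted p up to 0.119).

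Slfn2, a regulator of immune cell quiescence, was 10.7, 20 and 28.0 CPM in Normal, 74.8, 37.1 and 47.2 CPM in NMO and 71.1, 89.3 and 80.7 CPM in NMO+CL. All injected libraries lay above Normal, and the log2 fold change was 2.04 ± 0.35 (adjusted p = 0.00117) in NMO+CL against Normal and 1.44 ± 0.34 (adjusted p = 0.0752) in NMO against Normal. The latter was called in 2 of 15 settings, with DESeq2 and without the filter on low counts, with adjusted p values from 0.000533 to 0.338. Ifi204, a DNA-binding protein of the interferon-inducible p200 family, was 7.13 ± 2.25 CPM in Normal, 8.31 ± 2.4 CPM in NMO and 27.1 ± 2.41 CPM in NMO+CL. Ifi204 had a log2 fold change of 1.92 ± 0.46 in NMO+CL against Normal (adjusted p = 0.0126), which was lost without Normal replicate 3 (adjusted p = 0.0713). Shisa5 was the fourth that rose, with a log2 fold change of 0.60 ± 0.18 (adjusted p = 0.0463). Its call held in 6 of 15 settings and was lost without the filter on low counts, with the replicate number as a block, without any 1 of the Normal or NMO+CL libraries and without NMO replicate 1 (adjusted p up to 0.134). Ifi30 is also made by other antigen-presenting cells and Slfn2 by monocytes and lymphocytes, whose marker sums are given above, and their part was not tested.

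**Figure D5:**
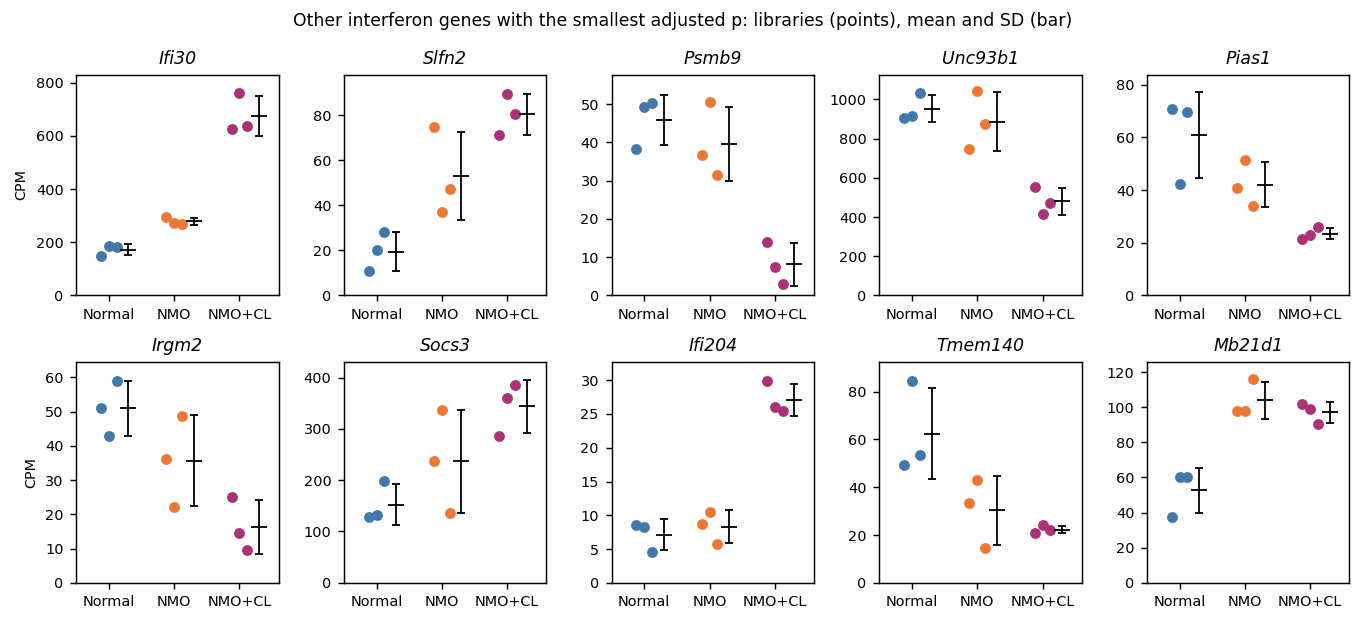
Each panel shows 1 of the 10 interferon genes outside the members with the smallest adjusted p, with CPM on the y axis from 0, points for libraries and a bar for the mean and SD of 3 libraries in each group. Ifi30 and Ifi204 are highest and Psmb9 and Unc93b1 lowest in the 3 NMO+CL libraries, without overlap with NMO.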

How the data were processed

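Per the labels and the study's methods, RNA from 9 pools of sorted microglia was made with the QuantSeq kit into libraries of transcript 3' ends and sequenced as single reads. The authors deposited read counts per gene, not normalized, taken with bedtools from unique and multiple Bowtie2 alignments; the submitters' processing notes name mm10, and the versions, annotation and use of strand are not given in the sources used here. Reads with several alignments may thus count for more than 1 gene. Each file held 23282 entries for 23238 symbols, and repeated symbols were summed. The methods describe the 3 pools of a group as independent, and the labels name no batch.

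The counts were fitted in edgeR 4.0.16 under R 4.3.3. Genes passing filterByExpr (minimum count 10, minimum total 15) were scaled by TMM, and a quasi-likelihood model with 1 coefficient per group was fitted to all 9 libraries. Tests were two-sided, with Benjamini-Hochberg adjustment over 12292 genes within a comparison. The common biological coefficient of variation was 0.519. CPM values use TMM-scaled library sizes, SE is the absolute log2 fold change divided by the square root of F, and counting floors cover counting error only. The script was tested on simulated data. Alternatives were other size factors, library totals, no filter, a replicate block, DESeq2 1.42.0, limma-voom (limma 3.58.1) and each library left out.

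The members and gene lists were chosen with earlier results of these data known. Members were given in full when called in any comparison, with Irf7, Irf9, Stat2, Isg15, Ifit3 and Ifitm3 added, and other interferon genes were the 10 with the smallest adjusted p, with the receptors, Ifnb1 and Ifng; 1 gene that this rule also names is not reported here. Samhd1, Herc6, Rtp4, Cmpk2, Uba7, Shisa5 and the examples within a role were named after their values were seen. Gene coordinates are from GENCODE M21 on GRCm38, promoters from RefSeq, and look-alike 3' ends were sought with BLAST 2.17.0 in the last 500 transcript bases at 90% identity over at least 75 bases.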

Additional observations from a re-analysis of the deposited data

How the results depend on the processing

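With 15 alternatives for each comparison, the number of called members and the members' median stayed close to the values given (within 1.5 times for a number, within the spread between libraries for a median) in 129 repeats and shifted in 6. In NMO against Normal 1 member, Ifitm3, was called higher with library totals alone, without the filter and with DESeq2, instead of 0. In NMO+CL against Normal 1 member, Samhd1, was called lower with DESeq2, instead of 0, and with single libraries left out the number ran from 0 to 2, namely 1 (Samhd1) without NMO replicate 3 and 2 (Gbp2 and Samhd1) without NMO+CL replicate 3. The number called higher there ran from 2 to 3, the lower value without Normal replicate 3. The median of the members ran from -0.05 to 0.20 in NMO against Normal, -0.20 to 0.05 in NMO+CL against NMO and -0.15 to 0.04 in NMO+CL against Normal. Among the other interferon genes, the pathway list had 0 to 1 called higher in NMO against Normal, 0 to 2 higher and 0 to 1 lower in NMO+CL against NMO, and 0 to 4 higher in NMO+CL against Normal. The list of other ISGs had 0 to 2 higher in the first comparison and 1 to 2 higher and 0 to 2 lower in the second. In the third it had 2 to 6 higher and 2 to 5 lower. The share of all genes called moved between tools as well. In NMO+CL against Normal it was 4.79% higher and 4.43% lower with edgeR. DESeq2 gave 6.48% and 6.36% there, and limma-voom 4.48% and 4.3%. For the other settings that share is not given, so these counts are not read as a result about the lists. The cause of these shifts was not tested.

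Some fold changes that were not called changed sign between settings. Isg15 in NMO against Normal was 0.09 with library totals, 0.00 without the filter and -0.48 to 0.37 with libraries left out. In NMO+CL against NMO it was -0.03 with library totals and -0.21 to 0.48 with libraries left out. In NMO+CL against Normal it was 0.00 with RLE factors, without the filter and with DESeq2, 0.06 with library totals, 0.02 with limma-voom and -0.20 to 0.37 with libraries left out. Irf9 in NMO+CL against Normal was 0.04 with library totals and -0.19 to 0.14 with libraries left out. With libraries left out, Irf7 in NMO against Normal ran from -0.24 to 1.29 (1.82 with limma-voom), and in NMO+CL against NMO Ifitm3 ran from -0.00 to 0.67 and Ifit3 from -0.06 to 1.49.

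Replicate numbers are shared between groups, but no label ties a number to a common day or sort. Deviations of same-numbered libraries correlated at -0.0148 to 0.0302. Each library was compared with the 3 libraries of every other group, of which a single library has its number. Of the 9 libraries, 6 correlated best with a library of their own number, and this count was not tested. With the replicate number as a block, 0 members were called in NMO against Normal and in NMO+CL against NMO and 3 higher in NMO+CL against Normal, as without it. The block turned Irf7 in NMO against Normal to -0.08, and Isg15 to 0.01 there and to 0.04 in NMO+CL against Normal. Depth limits the 19 members under a mean count of 100, and 3 libraries a group limit them all.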
